A study of Homo sapiens with 12 samples.

Results

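The effect of giving the nuclear receptor antagonist XY018 and the statin atorvastatin (ATV) together, rather than singly, was examined in MDA-MB468, a triple-negative breast cancer (TNBC) cell line of basal type. Of the 12 RNA-seq libraries of the study, 4 were used: cells treated for 24 h with vehicle, with ATV at 1.25 μM, with XY018 at 1.25 μM, or with both compounds at 1.25 μM each. The 4 libraries come from unmodified cells of 1 line, grown in RPMI medium with serum and insulin per the labels. The study's methods name DMEM for this line. The titles of the ATV and the combined sample give no dose of ATV, and that of the combined sample gives the dose of XY018 alone. The headers of their values give 1.25 for each compound. Each condition has 1 library, so the differences below stand without replicates and without p-values. Expression was measured as FPKM, the fragments of a gene scaled to the length of its transcript and to the depth of the library. Of 18217 genes listed, 11995 reached 1 FPKM in at least one of the 4 libraries and were compared, and 6222 did not. The limit lay among 123 genes just inside it, whose highest value was under 1.1 FPKM, and 127 just outside it, whose highest value was 0.9 FPKM or above.

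Statins block an early, rate-limiting step of the mevalonate pathway, which makes cholesterol and also the isoprenoid chains that anchor many small GTPases to membranes. When sterols run low, the transcription factor SREBP2 is released from the endoplasmic reticulum and raises the genes of sterol synthesis and uptake, a feedback that works against the drug. XY018 was developed as an antagonist of a nuclear receptor, a class of transcription factors whose activity ligands control.

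Markers of basal and of luminal breast epithelium were both present. EGFR was listed at 751 to 944 FPKM and KRT5, a basal keratin, at 55.0 to 137 FPKM over the 4 libraries. The luminal keratin KRT8 was at 509 to 918 FPKM. In the combined library the luminal genes KRT18, KRT19, GATA3 and FOXA1 lay at 558, 747, 35.8 and 11.4 FPKM. The basal genes KRT17, FOXC1, KRT6B and CDH3 lay at 109, 54.3, 20.5 and 18.5 FPKM there, and basal KRT14 at 1.04 FPKM. The oestrogen receptor gene ESR1 lay at 0.48 to 0.67 FPKM, the progesterone receptor gene PGR was listed at 0, and ERBB2 lay at 25.6 to 35.4 FPKM. Of markers of other cell types, the fibroblast genes other than COL1A1 and the 3 endothelial genes stayed at or under 0.25 FPKM, and the T-cell gene CD3E at or under 0.07 FPKM. PTPRC, a pan-leukocyte gene, lay at 0.60 to 0.87 FPKM. COL1A1 was listed at 4.96 to 8.49 FPKM. CD14, a monocyte gene, was listed at 17.9 FPKM in vehicle and 6.16 FPKM in the combined library. The depth, estimated from the spacing of low FPKM values, was 19700000 to 20800000 fragments. The 10 most abundant genes made up 6.72% of the summed FPKM in vehicle, 6.84% with ATV, 9.28% with XY018 and 9.63% with both compounds. The MTRNR2L genes, near copies of mitochondrial ribosomal RNA, summed to 8207, 9829, 16946 and 15337 FPKM in the same order, and their part in the differences below was not tested.

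Differences are given as log2 ratios of FPKM with 0.1 added to each value, and a gene past 1.5-fold was called lower or higher. The combined library was compared with ATV alone, with XY018 alone, and with the sum of the log2 ratios of ATV and XY018 to vehicle. The last quantity, called the excess, equals the step from XY018 to both compounds minus the step from vehicle to ATV. It asks how adding ATV acted on cells that also received XY018, set beside its action without XY018. All of these values share the combined library, and the excess uses every library, so they are not independent of each other. Against ATV, 1334 genes (11.1%) were lower and 1407 (11.7%) higher with both compounds. Against XY018, 239 (1.99%) were lower and 263 (2.19%) higher. The excess was below −0.585, the log2 of 1.5, for 379 genes (3.16%) and above 0.585 for 328 (2.73%). In 185 genes (1.54%) the combined library lay more than 1.5-fold below the lowest of the other 3 libraries, and in 176 (1.47%) more than 1.5-fold above the highest. The median difference of all genes compared was 0.01 against ATV, −0.02 against XY018 and −0.01 for the excess. Intervals given below are 95% counting intervals from estimated fragments. They hold counting error alone, without the variation from culture to culture.

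Promoter sequence is shown for 4 enzymes of cholesterol synthesis, picked by hand as examples, and for RHOB and KLF2. Of the genes reaching 5 FPKM, these 2 rose furthest above the highest of the other 3 libraries when both compounds were given. KLF2 reached 5 FPKM only in the combined library. The 250 bases before the transcription start were taken from RefSeq on GRCh38.p14, another build than the GRCh37 of the expression values. Each is printed 5′ to 3′ on the strand of the gene, and capitals mark the pentamer CCAAT on either strand (ATTGG when read on the other one). CCAAT is the site of the factor NF-Y, which is known to bind beside SREBP at sterol-regulated promoters.
HMGCS1, chr5:43313413-43313662, - strand: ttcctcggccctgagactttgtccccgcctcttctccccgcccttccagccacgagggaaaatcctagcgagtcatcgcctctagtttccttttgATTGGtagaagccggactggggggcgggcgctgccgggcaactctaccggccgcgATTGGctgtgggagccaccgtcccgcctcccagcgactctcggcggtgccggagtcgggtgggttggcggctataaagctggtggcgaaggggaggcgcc
MVD, chr16:88663092-88663341, - strand: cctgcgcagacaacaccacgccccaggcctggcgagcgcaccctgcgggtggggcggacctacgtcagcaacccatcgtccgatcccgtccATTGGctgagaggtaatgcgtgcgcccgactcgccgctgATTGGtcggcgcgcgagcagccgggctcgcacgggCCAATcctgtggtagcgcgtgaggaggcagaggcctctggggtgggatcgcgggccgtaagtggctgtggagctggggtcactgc
MSMO1, chr4:165327419-165327668, + strand: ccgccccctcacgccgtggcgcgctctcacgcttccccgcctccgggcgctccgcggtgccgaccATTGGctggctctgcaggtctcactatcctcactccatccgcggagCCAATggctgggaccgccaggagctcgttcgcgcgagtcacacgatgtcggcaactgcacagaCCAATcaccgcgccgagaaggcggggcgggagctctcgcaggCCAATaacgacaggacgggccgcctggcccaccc
NSDHL, chrX:152830813-152831062, + strand: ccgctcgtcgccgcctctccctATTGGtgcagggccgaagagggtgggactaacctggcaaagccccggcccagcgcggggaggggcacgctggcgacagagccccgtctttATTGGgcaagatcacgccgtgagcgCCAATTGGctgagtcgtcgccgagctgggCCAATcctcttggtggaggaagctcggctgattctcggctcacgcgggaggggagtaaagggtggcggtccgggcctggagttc
RHOB, chr2:20446824-20447073, + strand: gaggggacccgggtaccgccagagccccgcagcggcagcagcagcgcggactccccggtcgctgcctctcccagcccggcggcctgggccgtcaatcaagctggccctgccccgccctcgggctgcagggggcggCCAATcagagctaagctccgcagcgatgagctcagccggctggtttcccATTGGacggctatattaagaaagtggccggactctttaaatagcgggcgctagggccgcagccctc
KLF2, chr19:16324576-16324825, + strand: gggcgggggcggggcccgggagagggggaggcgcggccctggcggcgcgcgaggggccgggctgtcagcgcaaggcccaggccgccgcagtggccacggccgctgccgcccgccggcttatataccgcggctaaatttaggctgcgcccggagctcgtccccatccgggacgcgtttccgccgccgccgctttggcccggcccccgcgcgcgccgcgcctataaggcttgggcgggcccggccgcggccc

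In these 250 bases, CCAAT occurred 2 times before HMGCS1, 3 times before MVD, 4 times before MSMO1, 5 times before NSDHL (with an overlapping pair) and 2 times before RHOB, and it was absent before KLF2. A wider count used 300 bases, from 250 before to 50 after the start, on both strands. Of the 21 enzyme genes of cholesterol synthesis 16 had an entry, and 12 of these (75%) held CCAAT, as did 35.7% of all 27305 promoters and 37.1% of the 9845 genes compared that had an entry. It was also frequent in lists with no member of a downward excess past 1.5-fold, in 94.1% of 17 promoters of chaperones and the unfolded protein response and in 87.0% of 23 of mitosis and the spindle. Of the 16, IDI1 and CYP51A1 (excess −1.43 and −1.28), PMVK and GGPS1 held no CCAAT. ACAT2, FDFT1 and SQLE were among the enzyme genes with no entry. The sterol regulatory element TCACNCCAC was in none of the 16 and in 1.15% of all promoters (1.1% of those of the genes compared). The nuclear receptor half-site AGGTCA was likewise in none of them and in 13.9% of all promoters (9.8% of those of the genes compared), and the E-box CACGTG was in 2 of the 16 (SC5D and LSS) and in 7.43% of all (10.2% of those of the genes compared). These are matches of letters in a short window, and a missing match says only that the letters are not there.

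Most genes of cholesterol synthesis rose past 1.5-fold with ATV alone, and all of them were listed lowest with both compounds. For HMGCS1 (Entrez 3157; GRCh37 chromosome 5, 43287572 to 43313614, minus strand), which makes HMG-CoA, FPKM was 57.1 in vehicle, 158 with ATV, 23.5 with XY018 and 15.8 with both. ATV thus went with a rise in the absence of XY018 and with a fall in its presence, and the excess was −2.04 (interval −2.14 to −1.94). SQLE, squalene epoxidase, was at 76.5, 139, 45.4 and 24.3 FPKM in the same order, with an excess of −1.76. The combined library was the lowest of the 4 for both genes.

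Over the whole list of 21 genes, the excess was past 1.5-fold in 19, all downward (3.16% of all genes), with a median of −1.37 beside −0.01 for all genes. ATV alone raised 17 of the 21 past 1.5-fold (1.58% of all genes), with a median of 0.80, while the step from XY018 to both compounds had a median of −0.57. Against ATV alone, 19 of the 21 were lower (11.1% of all genes). Against XY018 alone 9 were lower (1.99%), and the same 9-gene count lay below the range of the other 3 libraries (1.54%). The counting interval of the excess lay below 0 in 20 of the 21, and in 2186 of all 11745 genes with an interval. That of the difference from XY018 lay below 0 in 18 of the 21, and in 2745 of all 11749 genes. At 2-fold instead of 1.5-fold, 0 of the 21 were lower than with XY018 alone. Set on a linear scale, where the differences in FPKM are summed rather than their logs, the median excess was −1.74.

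**Figure D1:**
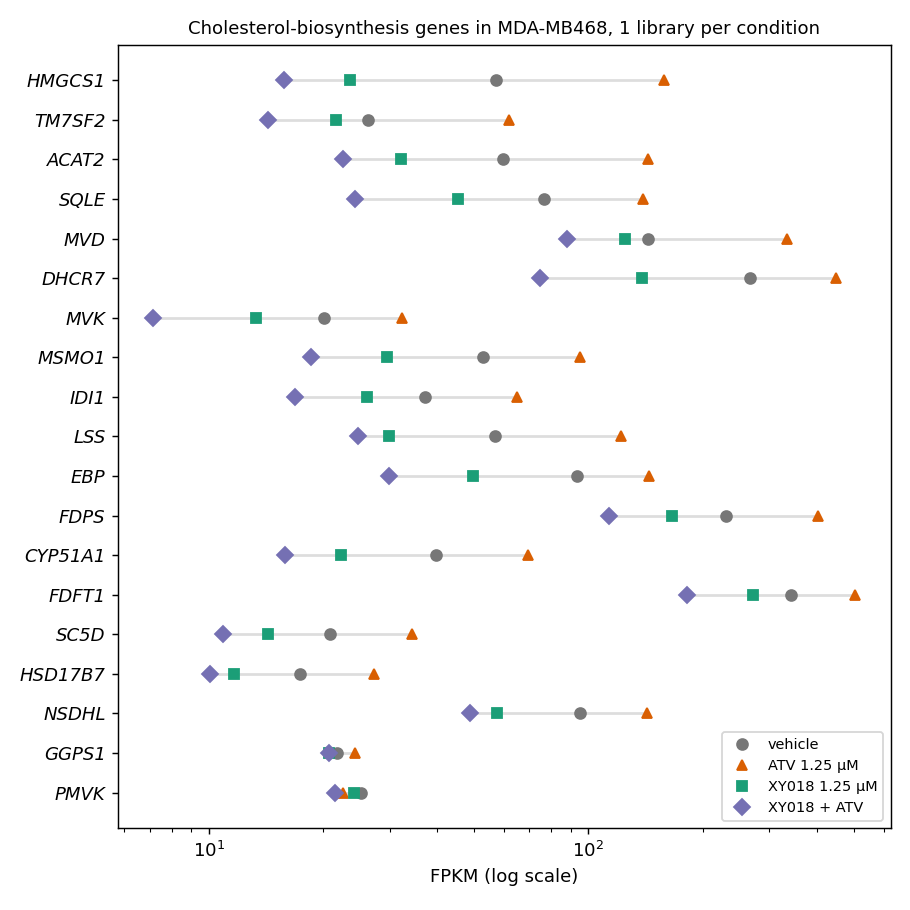
FPKM on a log axis of 19 cholesterol-biosynthesis genes in MDA-MB468, ordered by excess, with 1 point per library for vehicle, ATV, XY018 and both compounds. Both compounds give the lowest point in all 19 genes and ATV alone the highest in all but PMVK, while GGPS1 and PMVK stay close together, at 20.7 to 24.3 and 21.5 to 25.1 FPKM.

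Early steps of the pathway behaved alike with a pair of exceptions. ACAT2, which condenses acetyl-CoA, was at 59.7, 143, 32.1 and 22.5 FPKM in vehicle, ATV, XY018 and both compounds. MVK, mevalonate kinase, was at 20.1, 32.3, 13.3 and 7.15 FPKM, and MVD, mevalonate decarboxylase, at 144, 334, 125 and 87.8 FPKM. Their excess was −1.77, −1.57 and −1.72. PMVK, the kinase between MVK and MVD, was at 25.1, 22.5, 24.1 and 21.5 FPKM, with an excess of −0.01 (interval −0.27 to 0.26). IDI1, the isomerase that follows, had an excess of −1.43, and FDPS, which makes farnesyl diphosphate and has processed pseudogenes that can take its reads, −1.35. GGPS1 leads away from sterols to geranylgeranyl diphosphate and was at 21.7, 24.3, 20.8 and 20.7 FPKM, with an excess of −0.17 (interval −0.33 to −0.01).

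In the branch that leads only to sterols, FDFT1, squalene synthase, was at 342, 505, 272 and 182 FPKM, with an excess of −1.14. LSS, which closes the sterol rings, was at 56.6, 122, 29.8 and 24.7 FPKM, with an excess of −1.37. The difference of the combined library from XY018 alone was −0.27 in LSS, −0.24 in NSDHL and −0.21 in HSD17B7, smaller than in the rest of this branch. It was −0.89 in DHCR7, a reductase of the last steps, which was at 266, 448, 138 and 74.5 FPKM. The excess of the other genes of the branch ran from −1.81 in TM7SF2 to −0.83 in NSDHL. HSD17B7 has pseudogenes that can share its reads, and its interval against XY018 was −0.44 to 0.02.

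A library of XY018 alone at 2.5 μM was deposited in the same set of values. Its dose differs, so its values are set beside the others without a comparison. HMGCS1 was at 15.6 FPKM there and at 15.8 FPKM with both compounds, DHCR7 at 103 and 74.5 FPKM, and MVD at 123 and 87.8 FPKM.

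The genes of sterol sensing and uptake did not move as one. INSIG1, the SREBP target that holds SREBP in the endoplasmic reticulum, was at 30.1, 61.8, 17.5 and 8.68 FPKM in vehicle, ATV, XY018 and both, with an excess of −2.04 (interval −2.22 to −1.87). Like the enzymes, it was highest with ATV and lowest with both compounds. SREBF2, which encodes SREBP2, was at 123, 141, 114 and 96.3 FPKM, with an excess of −0.44, under 1.5-fold. SREBF1 was at 41.4, 28.9, 37.0 and 21.9 FPKM: it was lower with both compounds than with XY018 alone by 0.76 on the log2 scale, and its excess was −0.24.

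Of 15 genes of sterol uptake and trafficking, 7 were lower and 1 higher than with ATV alone (11.1% and 11.7% of all genes), 3 were lower than with XY018 alone (1.99%), and 6 had an excess past 1.5-fold, all downward (3.16%), among them LRP8, SCARB1, LIPA and STARD4. The median excess of the 15 was −0.27. MYLIP, a ubiquitin ligase and a target of the liver X receptors, was at 9.50, 4.84, 9.60 and 5.82 FPKM, with values near one another wherever ATV was present. Of 9 genes of SREBP processing, INSIG1 alone had an excess past 1.5-fold (downward in 3.16% of all genes), and the median was −0.20. Of 9 genes of the liver X receptors and their targets, 6 reached 1 FPKM, and none had an excess past 1.5-fold. ABCG1, a cholesterol exporter, was at 1.14, 0.37, 4.21 and 2.34 FPKM, lower with both compounds than with XY018 alone by 0.82 on the log2 scale. ABCA1 stayed under 1 FPKM, at 0.24, 0.06, 0.74 and 0.72.

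Genes of fatty acid synthesis, which SREBP1 is known to raise, moved in the direction of the sterol genes. FASN, fatty acid synthase (Entrez 2194; GRCh37 chromosome 17, 80036214 to 80056170, minus strand), was at 449, 633, 327 and 156 FPKM in vehicle, ATV, XY018 and both. The combined library was 2.09-fold below XY018 alone, and the excess was −1.56 (interval −1.58 to −1.53). SCD, which places the double bond in stearate, was at 238, 299, 178 and 79.7 FPKM, with an excess of −1.49. ELOVL6, an elongase, was at 2.98, 6.80, 1.46 and 0.71 FPKM, with an excess of −2.11. ACLY, which makes cytosolic acetyl-CoA from citrate, was at 97.7, 148, 52.8 and 39.3 FPKM, with an excess of −1.02, and ACSS2, which makes it from acetate, had an excess of −1.43. Of 20 genes of the list that were compared, 13 were lower than with ATV alone (11.1% of all genes), 4 lower than with XY018 alone (1.99%), namely FASN, SCD, ELOVL6 and ACSS2, and 11 lower than the sum of the single ratios (3.16%), and 0 were higher in any of these. The median excess was −0.67.

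**Figure D2:**
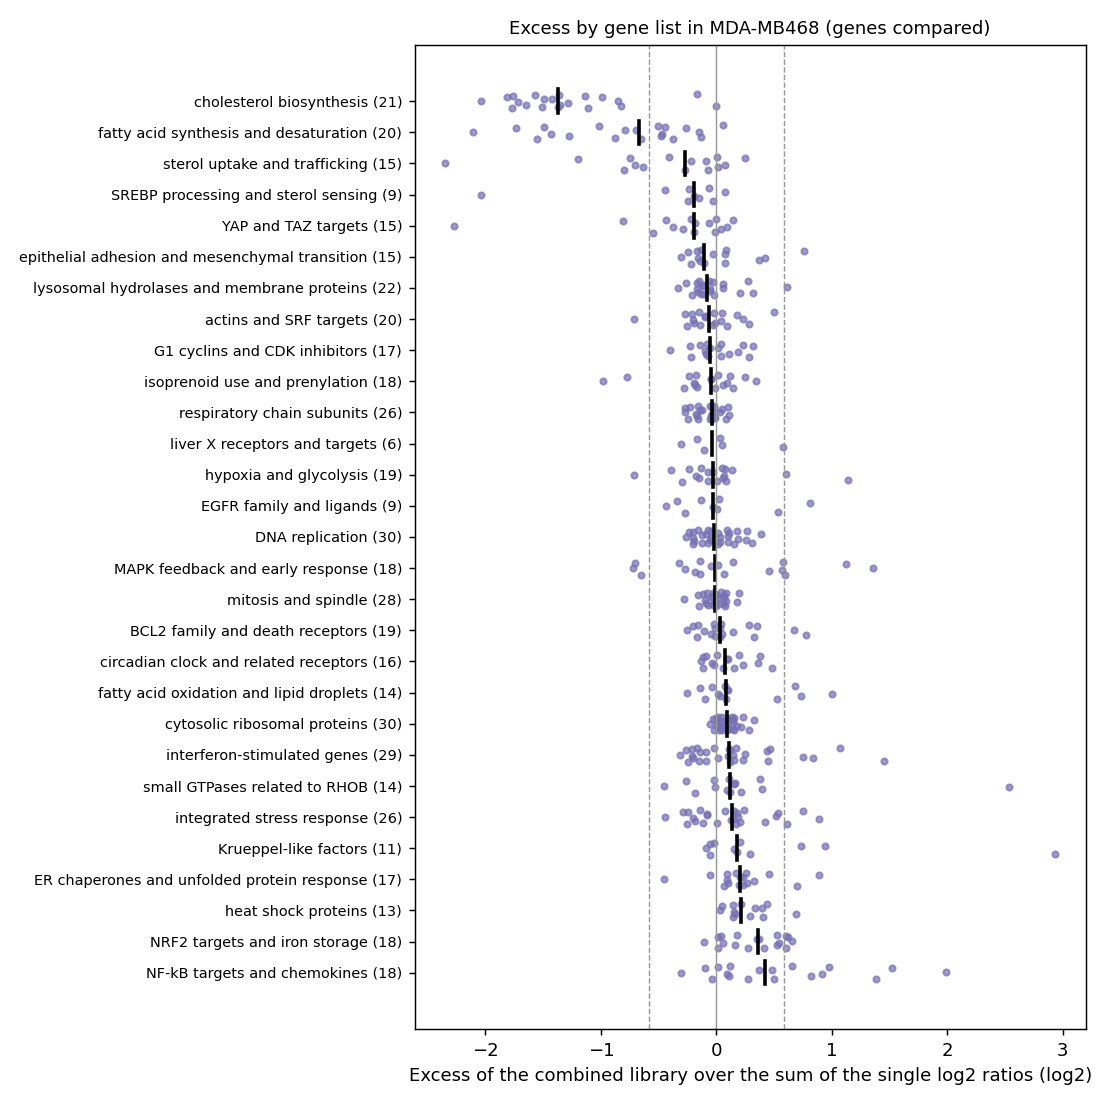
Excess of both compounds over the sum of the single log2 ratios for each compared member of 29 gene lists in MDA-MB468 (points), with the list's median (black bar), no difference (solid line) and 1.5-fold (dashed lines). Cholesterol synthesis (median −1.37) and fatty acid synthesis (−0.67) lie furthest left, and NF-kB targets (0.42) furthest right.

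Among genes at 5 FPKM or above, RHOB and KLF2 stood furthest above the range of the other 3 libraries. KLF2 reached that limit only in the combined library, the one whose rise is ranked. RHOB (Entrez 388; GRCh37 chromosome 2, 20646835 to 20649201, plus strand), a short-lived GTPase that carries farnesyl or geranylgeranyl chains, was at 7.39 FPKM in vehicle, 8.59 with ATV, 10.2 with XY018 and 69.1 with both. It was 6.73-fold above the highest of the other libraries, and its excess was 2.54 (interval 2.30 to 2.79). KLF2 (Entrez 10365; GRCh37 chromosome 19, 16435637 to 16439496, plus strand), a zinc-finger factor known to respond to statins in endothelium, was at 0.91, 0.75, 1.18 and 8.12 FPKM. It was 6.42-fold above the highest of the others, and its excess was 2.93 (interval 2.36 to 3.76). The 8.12 FPKM rest on about 461 fragments, and the vehicle value on about 52. With a pseudocount of 1 the excess of KLF2 was 2.19. At 2.5 μM of XY018 alone, set beside these without a comparison, RHOB was at 11.4 and KLF2 at 1.33 FPKM.

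Other genes of these families moved less. Of 14 small GTPases related to RHOB, RHOB alone had an excess past 1.5-fold (upward in 2.73% of all genes), and the median was 0.11. RHOV, an atypical member, was at 14.1, 19.5, 13.8 and 24.7 FPKM, 0.84 above XY018 alone on the log2 scale. Of 11 Krueppel-like factors, 3 had an upward excess (2.73% of all genes), with a median of 0.18. KLF4 was at 2.83, 2.39, 8.86 and 14.5 FPKM, with an excess of 0.94, and KLF6 at 9.08, 10.6, 12.2 and 23.7 FPKM, with an excess of 0.73. Of 18 genes of isoprenoid use and prenylation, 2 had a downward excess (3.16%), PDSS1 and FNTB. FNTB, the beta subunit of farnesyltransferase, was at 2.47, 2.36, 2.59 and 1.2 FPKM, with an excess of −0.99 (interval −1.60 to −0.49). The median of the list was −0.05.

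**Figure D3:**
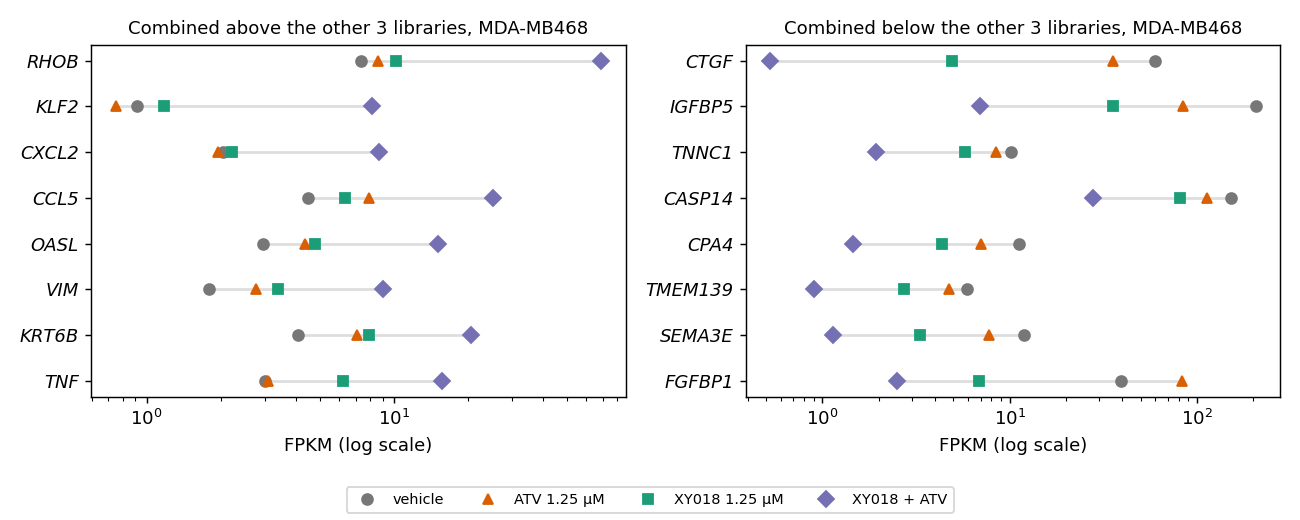
FPKM on a log axis in MDA-MB468, with 1 point per library. Of genes at 5 FPKM or above, the 8 furthest above (left) and the 8 furthest below (right) the range of the other 3 libraries are shown. RHOB stands at 69.1 FPKM beside 7.39 to 10.2 in the other libraries, and CTGF at 0.53 FPKM beside 4.94 to 59.4.

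Connective tissue growth factor, CTGF (Entrez 1490, GRCh37 chromosome 6, 132269316 to 132272512, minus strand), is a secreted target of the YAP and TAZ coactivators. Among genes at 5 FPKM or above, it stood furthest below the other 3 libraries. It was at 59.4 FPKM in vehicle, 35.8 with ATV, 4.94 with XY018 and 0.53 with both compounds, a decline with each compound that went further with both. The difference from XY018 alone was −3.0 (interval −3.88 to −2.62), on about 25 fragments in the combined library, and −1.96 with a pseudocount of 1. The excess was −2.27 on the log2 scale. On a linear scale it turned to 2.66, since the summed falls exceed the vehicle level and the sum was set to 0. The direction of the excess depends on the scale in this gene, in IGFBP5, SEMA3E, CPA4 and ANKRD1, and in genes whose excess was under 1.5-fold, among them CYR61, NT5E, AMOTL2, ACTB, ACTG1 and RRM2. In 7 of the 15 YAP and TAZ targets it had the other sign on the linear scale.

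Of 15 YAP and TAZ targets and their partners, 11 were lower than with ATV alone (11.1% of all genes), 7 were lower than with XY018 alone (1.99%), the same number lay below the range of the other 3 libraries (1.54%), and 2 had a downward excess (3.16%). The median was −0.45 against XY018 and −0.19 for the excess. CYR61 was at 51.4, 35.8, 20.02 and 10.3 FPKM, and NT5E, the surface nucleotidase CD73, at 56.1, 33.8, 15.2 and 7.97 FPKM. AMOTL2, an inhibitor of YAP, was at 68.6, 51.8, 35.5 and 22.0 FPKM. These 3 fell with either compound and were lowest with both, and their excess of −0.44, −0.19 and −0.29 was under 1.5-fold. On the linear scale it was 1.21, 6.33 and 0.23, and the median of the 15 was 0.11. The linear sum of NT5E was −7.05 FPKM and was set to 0, so the size of its 6.33 depends on the pseudocount. ANKRD1 went from 3.34 to 0.13 FPKM, on about 5 fragments in the combined library. Its excess of −0.81 had an interval of −2.86 to 0.04 and was 0.17 with a pseudocount of 1.

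Cytoskeletal genes followed in part. ACTB, cytoplasmic beta-actin, was at 3718, 2984, 1175 and 781 FPKM, and ACTG1, gamma-actin, at 1713, 1326, 587 and 392 FPKM. The 2 genes are alike in sequence and can share reads. Their differences from XY018 alone were −0.59 and −0.58, and their excess −0.27 and −0.21, which turned to 0.82 and 0.97 on the linear scale. Of 20 actin and SRF target genes, 8 were lower than with ATV alone (11.1% of all genes), 2 lower than with XY018 alone (ACTB and EGR1; 1.99%) and 1 lower than the sum of the single ratios (EGR1, −0.71; 3.16%).

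Other secreted and epithelial genes were among the 8 furthest below the range of the other libraries, of genes at 5 FPKM or above. IGFBP5, which binds insulin-like growth factors, was at 207, 83.8, 35.9 and 6.93 FPKM, 2.36 below XY018 alone on the log2 scale. CASP14, a caspase of keratinocyte differentiation, was at 151, 113, 81.0 and 27.8 FPKM, with an excess of −1.12. The carboxypeptidase CPA4 was at 11.2, 7.05, 4.36 and 1.47 FPKM. TNNC1 (10.2, 8.48, 5.82 and 1.93 FPKM), TMEM139 (5.95, 4.77, 2.72 and 0.91 FPKM) and the semaphorin SEMA3E (12.0, 7.74, 3.31 and 1.14 FPKM) had the same order of libraries. FGFBP1, a carrier of fibroblast growth factors, had the pattern of the sterol genes instead: 39.2, 83.3, 6.86 and 2.52 FPKM, and the lowest excess of any gene at 5 FPKM or above, −2.49 (interval −2.95 to −2.11). The differences from ATV alone of THBS1 and ERP27 were −2.97 and −3.21. Both were already low with XY018 alone, at 3.96 and 3.27 FPKM, against 2.09 and 1.38 FPKM with both.

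CXCL2, CXCL3, CCL5, TNF and TNFAIP3, genes of chemokines and inflammation, were highest with both compounds. CXCL2, a neutrophil chemokine, was at 2.03, 1.94, 2.22 and 8.74 FPKM in vehicle, ATV, XY018 and both, with an excess of 1.99 (interval 1.28 to 2.81). CXCL3 was at 3.41, 3.57, 2.49 and 7.65 FPKM, with an excess of 1.52, and CXCL1 at 29.7, 30.5, 13.7 and 27.7 FPKM, with an excess of 0.97. The 3 sequences are alike, and reads can be split between them. In CXCL2 and CXCL3 the combined library was the highest of the 4, while in CXCL1 it lay at the level of vehicle. TNFAIP3, which restrains NF-kB, was at 4.78, 5.42, 10.6 and 22.7 FPKM, and TNF, a cytokine outside the list, at 3.0, 3.10, 6.20 and 15.6 FPKM. CCL5, a T-cell chemokine outside the list as well, was at 4.50, 7.93, 6.35 and 25.1 FPKM. Of 18 compared NF-kB targets and chemokines of 24 in the list, 9 were higher than with XY018 alone (2.19% of all genes), 8 lay above the range of the other libraries (1.47%) and 7 had an upward excess (2.73%), with a median excess of 0.42.

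Interferon-stimulated genes had a mixed picture. Of 29 compared, 13 were lower and 6 higher than with ATV alone (11.1% and 11.7% of all genes), and 0 were lower and 10 higher than with XY018 alone (1.99% and 2.19%). The median was −0.30 against ATV and 0.35 against XY018, and 4 had an upward excess (2.73%). OASL, an oligoadenylate synthetase-like protein, was at 2.95, 4.38, 4.80 and 15.02 FPKM, with an excess of 1.07. RSAD2, which encodes viperin, was at 0.89, 1.22, 0.90 and 3.54 FPKM, with an excess of 1.45. IFIT3 was at 5.86, 7.15, 5.24 and 11.5 FPKM. In these 3 genes the combined library was the highest, while IFITM2 was at 9.40, 8.36, 2.31 and 1.69 FPKM, with an excess of −0.26 that turned to 0.39 on the linear scale.

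GDF15, ATF3, PPP1R15A, DDIT3 and HSPA5, genes of the cellular stress responses, were higher with XY018 alone than in vehicle and higher again with both compounds. GDF15, a stress-induced cytokine, was at 25.5, 31.5, 242 and 551 FPKM, 1.19 above XY018 alone on the log2 scale, with an excess of 0.89. ATF3, a factor of the integrated stress response, was at 7.61, 10.2, 30.4 and 62.3 FPKM, and PPP1R15A, which reverses the block of translation, at 18.0, 19.1, 70.0 and 125 FPKM. DDIT3, which encodes CHOP, was at 17.5, 18.5, 67.7 and 104 FPKM. Of 26 genes of the integrated stress response, these 4 were higher than with XY018 alone (2.19% of all genes), and 3 had an upward excess (2.73%), with a median of 0.14. HSPA5, the chaperone BiP, was at 106, 90.8, 292 and 464 FPKM, with an excess of 0.88. Of 17 chaperones and other genes of the unfolded protein response, 11 were higher than with ATV alone (11.7%), 1 was higher than with XY018 alone (2.19%), and 2, HSPA5 and MANF, had an upward excess (2.73%).

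Of 18 NRF2 targets and iron-storage genes, 11 were higher and 1 lower than with ATV alone (11.7% and 11.1%), 7 were higher than with XY018 alone (2.19% of all genes), and 4 had an upward excess (2.73%), with a median of 0.36. SQSTM1, the autophagy receptor p62, was at 182, 197, 617 and 973 FPKM, with an excess of 0.54. HMOX1, haem oxygenase, was at 9.46, 9.50, 13.2 and 20.2 FPKM, and SRXN1, sulfiredoxin, at 30.3, 31.5, 48.6 and 76.7 FPKM, with an excess of 0.61 and 0.60. FTL, ferritin light chain, was at 272, 276, 772 and 1042 FPKM, under 1.5-fold against XY018. The early-response genes JUN and DUSP1 rose as well, JUN from 14.6 FPKM in vehicle to 13.2, 29.9 and 58.7 and DUSP1 from 3.47 to 2.19, 7.88 and 13.0, with an excess of 1.12 and 1.36. Of the 18 genes of MAPK feedback and early response, 3 had an upward excess (2.73%), MAFF included, and 3, DUSP6, ETV4 and ETV5, a downward one (3.16%).

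RRM2 and MKI67, genes of proliferation, were lower in the combined library than with ATV alone and stayed within 1.5-fold of XY018 alone. RRM2, a subunit of ribonucleotide reductase, was at 39.99, 33.5, 11.0 and 8.26 FPKM, and MKI67, the Ki-67 antigen, at 40.5, 35.9, 23.5 and 21.4 FPKM. Of 30 DNA replication genes, 14 were lower than with ATV alone (11.1% of all genes), 0 were past 1.5-fold against XY018 or in excess, and the median excess was −0.02. Of 28 genes of mitosis and the spindle, 4 were lower than with ATV alone (11.1%), again with 0 past 1.5-fold in the other measures. CCND1, cyclin D1, was at 73.3, 70.9, 27.0 and 19.8 FPKM, and MYC at 67.4, 84.5, 41.9 and 65.6 FPKM. MYC was 0.65 above XY018 alone on the log2 scale and lay near vehicle. It was the only one of 17 G1 cyclins, CDK inhibitors and related genes past 1.5-fold in that comparison (2.19% of all genes were higher). None of the 17 had an excess past 1.5-fold.

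Several lists had few members with an excess past 1.5-fold (downward in 3.16% of all genes, upward in 2.73%). The median excess was 0.09 in 30 cytosolic ribosomal proteins, −0.04 in 26 respiratory chain subunits and −0.08 in 22 lysosomal genes, with 0, 0 and 1 member past 1.5-fold. The ribosomal proteins were slightly higher with both compounds than with ATV alone, by a median of 0.25, in 29 of the 30. It was 0.21 in 13 heat shock proteins, where HSPB1, at 454, 413, 509 and 747 FPKM, was the only member past 1.5-fold and all 13 lay above 0, and −0.10 in 15 genes of epithelial adhesion and mesenchymal transition. In that list VIM, vimentin, was at 1.78, 2.78, 3.41 and 9.00 FPKM, with an excess of 0.76. KRT6B, a keratin of activated epidermis and a basal marker, was at 4.09, 7.08, 7.93 and 20.5 FPKM.

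Of the genes furthest above ATV alone, the following 5 were already past 1.5-fold above vehicle with XY018 alone. CNTD2, a cyclin-like gene, was at 0.55, 0.55, 7.78 and 11.6 FPKM, and KLHDC7B at 1.23, 1.91, 18.5 and 25.1 FPKM. GADD45G, a growth-arrest gene, was at 4.37, 6.86, 46.9 and 94.2 FPKM, and PTPRH, a receptor phosphatase, at 0.24, 0.41, 3.19 and 6.29 FPKM. CYP1A1, the hydroxylase induced through the aryl hydrocarbon receptor, was at 7.11, 6.70, 37.6 and 93.1 FPKM, with an excess of 1.39 (interval 1.17 to 1.62). The excess of the other 4 ran from −0.16 in KLHDC7B (0.39 on the linear scale) to 0.57 in CNTD2. The remaining genes of the 8 with the highest excess were TMEM31 (2.59, 1.24, 3.81 and 7.29 FPKM), C11orf53 (6.16, 4.63, 4.27 and 9.64 FPKM) and the chemokine CCL20 (3.87, 2.14, 3.38 and 5.03 FPKM), all highest with both. PTPRH, TMEM31 and CCL20 reached the limit of 5 FPKM for these rankings only in the combined library, as did KLF2, CXCL2 and CXCL3. The same held for OASL and VIM, ranked against XY018 alone and against the range of the other libraries.

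The same 4 treatments were given to HCC70, a second TNBC line, at an estimated 9340000 to 10100000 fragments a library. There 343 of 11944 genes (2.87%) had a downward excess and 399 (3.34%) an upward one. Of the 21 cholesterol genes, 5 had a downward excess, with a median of −0.40, and 0 were past 1.5-fold against XY018 alone (2.11% of all genes were lower), with a median of −0.18. ATV alone raised 3 of them past 1.5-fold (2.39%), and XY018 alone lowered 17 (2.75%), where it lowered 11 in MDA-MB468 (8.42%). HMGCS1 was at 16.1, 20.4, 5.79 and 4.25 FPKM in HCC70, with an excess of −0.78, and FASN at 79.2, 113, 48.7 and 54.2 FPKM, with an excess of −0.35. RHOB was at 1.15, 3.58, 1.13 and 6.89 FPKM, and KLF2 at 0.37, 0.83, 0.36 and 2.50 FPKM. In HCC70 both genes were past 1.5-fold above vehicle with ATV alone, and in MDA-MB468 neither was. Their excess in HCC70 was 0.95 (interval 0.09 to 1.85) and 1.51 (interval 0.16 to 3.10). CTGF was listed at 0.14 FPKM or less in every HCC70 library and was not compared. With 1 library per condition in each line, the difference between the lines could not be tested, and the 2 tables were normalized separately.

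**Figure D4:**
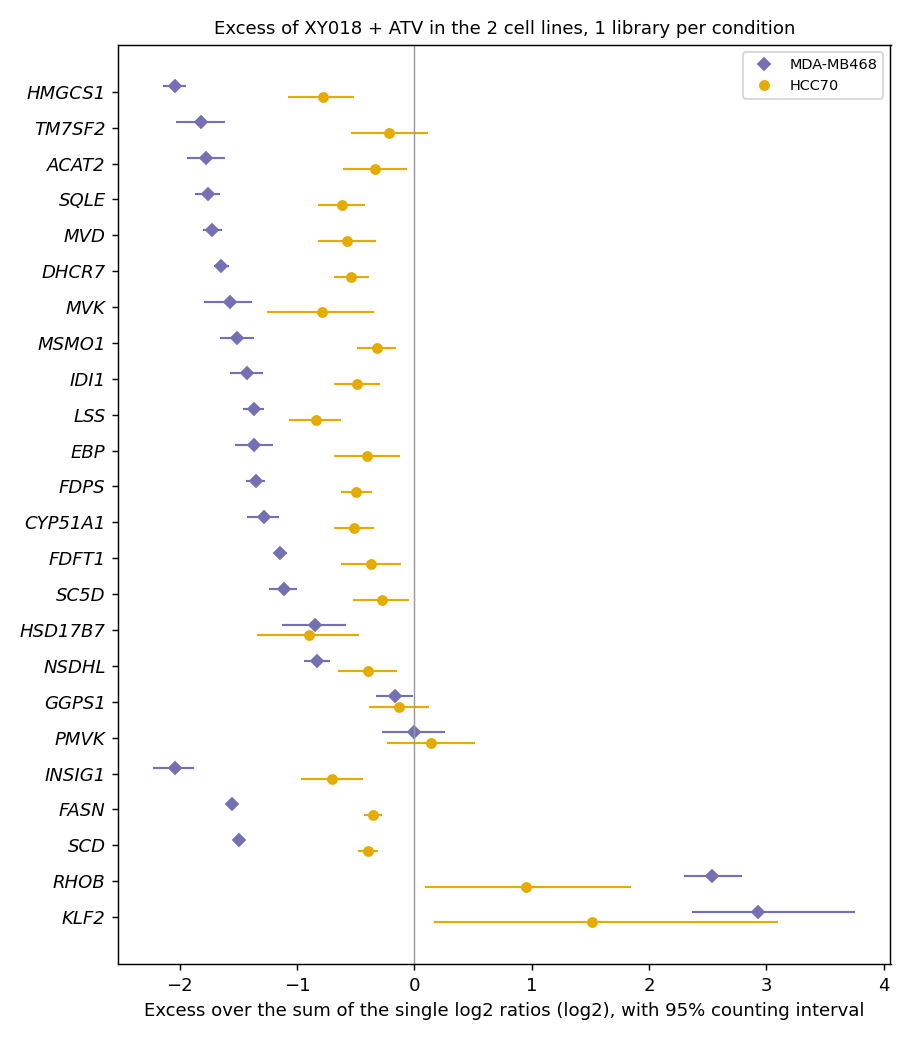
Excess of both compounds over the sum of the single log2 ratios in MDA-MB468 (diamonds) and HCC70 (circles), with 95% counting intervals (lines), for 19 cholesterol-biosynthesis genes, 3 further SREBP targets, RHOB and KLF2. Apart from HSD17B7, the MDA-MB468 point of every enzyme plotted lies left of its HCC70 point, and RHOB and KLF2 lie right of 0 in both lines.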

How the data were processed

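RNA-seq of 4 MDA-MB468 samples was analysed, with XY018 at 2.5 μM and 4 HCC70 samples set beside them. Per the labels, libraries were made from total RNA with an Illumina TruSeq kit, and the authors processed reads with BWA, Bowtie and Cufflinks on GRCh37 (versions not given in the sources used here). The authors deposited FPKM scaled per table; the headers name no unit, and the values and Cufflinks point to FPKM. The GSK805 table was not used.

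From these values log2 ratios with a pseudocount of 0.1 were computed where any of the 4 libraries reached 1 FPKM. Depth was estimated from the spacing of low FPKM values of single-transcript genes, and Clopper-Pearson intervals (normal approximation on the log2 scale for the excess) were taken without a pseudocount. Lengths and positions came from the GENCODE annotation lifted to GRCh37, promoters from RefSeq. The calculation was tested on simulated data.

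The members, the 29 lists and the named genes were chosen with earlier results of these data known. Named genes were every cholesterol gene, the 8 lowest and 8 highest genes at 5 FPKM or above in each of 4 measures, the 2 members of each other list with the largest value in each difference, and single genes such as SREBF1, INSIG1 and RHOB; some of these are not reported here. Further genes are examples of their list, chosen after their values were seen. Alternatives were pseudocounts of 1 and 0.01, no filter, a filter at 5 FPKM, rescaling to the median or upper quartile, 2-fold, and a linear sum. Calculations ran in Python 3.11.15 with pandas 2.3.3 and numpy 2.4.6, intervals in scipy 1.17.1, and figures in matplotlib 3.10.9.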

Additional observations from a re-analysis of the deposited data

Results flagged for a closer look

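In 6 genes named here the combined library moved past 1.5-fold in one direction in MDA-MB468 and in the opposite direction in HCC70. With 1 library per condition these differences between the lines were not tested. The search covered only the genes named by rule, 139 of them compared in MDA-MB468, which include the extremes of that line. The share of such genes over all genes was not computed. Against ATV alone the log2 difference of CYP1A1 was 3.78 in MDA-MB468 and −0.89 in HCC70. EGR1, an early-response factor, differed from ATV alone by −1.33 and 1.17, and from XY018 alone by −0.71 and 1.46. For CXCL2 the difference from ATV alone was 2.12 in MDA-MB468 and −0.69 in HCC70, on FPKM of 1.84 to 3.02 in HCC70. KRT6B differed by 1.52 and −0.82 and was at 151 to 292 FPKM in HCC70, against 4.09 to 20.5 in MDA-MB468. VIM differed by 1.66 and −0.73, and RSAD2 by 1.46 and −0.63.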

How the results depend on the processing

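No paired analysis was possible because each condition has 1 library and the labels give no replicate numbers. For the same reason no library could be left out. Counts are given lower and higher. With a pseudocount of 1, 117 and 142 genes passed 1.5-fold against XY018, 199 and 148 in excess, and 93 and 102 lay outside the range of the other libraries. Without a filter on low values 2360 genes were higher than with ATV, 641 and 929 passed against XY018, 1017 and 1211 in excess, and 290 and 517 lay outside the range. With a filter at 5 FPKM, which leaves fewer genes, 919 were higher than with ATV, 116 and 111 passed against XY018, 181 and 101 in excess, and 102 and 93 lay outside the range. At 2-fold, which counts fewer by construction, 476 and 477 passed against ATV, 58 and 70 against XY018, 107 and 84 in excess, 47 and 44 lay outside the range, and 0 cholesterol genes were lower than with XY018. On the linear scale the median excess of the cholesterol list was −1.74. The excess turned to 0.17 in ANKRD1 with a pseudocount of 1. On the linear scale it turned to 2.66 in CTGF, 6.14 in IGFBP5, 3.63 in SEMA3E and 1.2 in ANKRD1, where a sum below 0 was set to 0. In CPA4, whose linear sum was 0.16 FPKM, it turned to 2.59. These are 6 of the 23 values of single genes that changed sign. The other 17 lay under 1.5-fold, and 17 of the 23 changed on the linear scale. Rescaling to the median or upper quartile moved the median of all genes by less than 0.1. Low FPKM limit ANKRD1, CTGF and KLF2.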

Other observations

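Further gene lists had single members that moved. Of 14 genes of fatty acid oxidation and lipid droplets, 3 had an upward excess past 1.5-fold (2.73% of all genes). ANGPTL4, a lipase inhibitor, was at 0.17, 0.47, 0.81 and 3.75 FPKM in vehicle, ATV, XY018 and both compounds, and PDK4, which restrains pyruvate dehydrogenase, at 0.07, 0.13, 0.90 and 2.07 FPKM. Both genes reached the limit of 1 FPKM only in the combined library, the one whose rise the excess measures. Counting intervals of the excess included 0 for both. PLIN2, a coat protein of lipid droplets, was at 24.4, 22.4, 27.9 and 42.5 FPKM, with an excess of 0.73 (interval 0.55 to 0.91). Of 19 hypoxia and glycolysis genes, 2 had an upward and 1 a downward excess (2.73% and 3.16% of all genes). ADM, adrenomedullin, was at 8.01, 5.08, 7.71 and 10.9 FPKM, and NDRG1 at 22.3, 26.1, 58.0 and 103 FPKM.

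Of 19 BCL2 family and death receptor genes, 2 had an upward excess (2.73% of all genes), and the median was 0.03. These were BCL2 itself, with an excess of 0.77 and 2.56 FPKM in the combined library, and PMAIP1, with 0.67. BBC3, the BH3-only gene PUMA, was at 8.70, 12.2, 22.6 and 40.2 FPKM, 0.83 above XY018 alone on the log2 scale, and its excess was 0.35. PMAIP1, which encodes NOXA, was at 7.12, 6.55, 5.55 and 8.20 FPKM. Of 9 EGFR family and ligand genes, HBEGF had an upward excess (2.73% of all genes), at 1.71, 1.39, 1.64 and 2.41 FPKM. Of 16 genes of the circadian clock and related nuclear receptors none had an excess past 1.5-fold, and PER1 and NR1D1 were higher than with XY018 alone by 0.65 and 0.59 on the log2 scale.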
